A study of Mus musculus with 5 samples.

Results

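The platelet-derived growth factor (PDGF) family was followed here through its 7 genes: the receptors Pdgfra and Pdgfrb, the receptor-like gene Pdgfrl, and the ligands Pdgfa, Pdgfb, Pdgfc and Pdgfd. They are the named members of the family among the 31055 genes counted. The rule used no measured value, but the family was picked with earlier results of these data known. All 7 were detected in every library, and 6 passed the filter for comparisons between libraries, a mean over the libraries of at least 1 CPM, the usual counts-per-million scaling of a gene's unique molecular identifiers (UMIs) to those of all genes. Pdgfb, with a mean below it, is described by its counts alone.

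Cells came from hindlimb skeletal muscle of Prx1Cre;mTmG mice on a C57Bl/6 background, adults of 10 to 14 weeks, and were sorted for GFP. In these mice Cre driven by Prx1, a limb mesenchyme gene, switches its lineage permanently from Tomato to GFP, so that GFP records origin, not current Prx1 expression. The sort was meant to leave out cells of other origin, but small hematopoietic-like and myogenic-like clusters were found. The conditions were uninjured muscle (d0), d3 and d5 after a non-stabilized tibial fracture, and d3 and d5 after polytrauma, a fracture combined with mechanical injury of the surrounding muscles. Each was 1 droplet library from a pool of 2 mice, so the 5 libraries give no replicate, no difference between conditions was tested, and intervals cover counting error only.

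The library used as d5 post-fracture is labelled d3 post-polytrauma in the deposited records, and the one used as d3 post-polytrauma is labelled d5 post-fracture. They were assigned by the cell numbers of the study. Under the deposited labels the values of these 2 libraries change places. Of 34439 barcodes, 29831 cells were retained, from 1468 at d5 post-fracture to 11941 at d5 post-polytrauma, with median depths from 3640 UMIs at d0 to 34949 at d5 post-fracture. The d0 and d3 libraries share 405 to 525 barcodes pairwise and the d5 libraries share 944, against at most 3 between these sets. Differences between d5 and earlier libraries therefore cannot be told apart from this change of barcode set. At d5 post-fracture 59.2% of retained cells had a barcode also present in another library, but only 0.749% held less than 10 times the UMIs found there. Shared barcodes took 45.5% of the chondrocyte-like cells at d5 post-polytrauma.

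PDGFs are secreted dimers that drive proliferation, migration and survival of mesenchymal cells. PDGFRα is a receptor tyrosine kinase that binds PDGF-A, PDGF-B and PDGF-C chains and is widely used to mark fibro-adipogenic progenitors (FAPs) of muscle, whereas PDGFRβ binds PDGF-B and PDGF-D and is known for the recruitment of pericytes to vessels. Pdgfrl encodes a protein that resembles the ligand-binding portion of a PDGF receptor without a kinase. PDGF-C and PDGF-D are secreted in a latent form that proteases must cleave. The study gave imatinib, an inhibitor of PDGF receptors, ABL and KIT among other kinases, after polytrauma and compared it with vehicle. Its authors could not exclude effects of the drug on other cell types. The study also found PDGFRα protein in the fibrous tissue of polytrauma, and PDGFRα and PDGFRβ protein in Prx1-derived cells of muscle.

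The genes lie apart in the genome (GRCm38, GENCODE M21), and only Pdgfra and Pdgfa share a chromosome, at distant positions. Pdgfra (ENSMUSG00000029231) spans positions 75152292 to 75198215 of chromosome 5 on the forward strand. Pdgfa (ENSMUSG00000025856) lies on the reverse strand of the same chromosome, at 138976014 to 138997370. Pdgfrb (ENSMUSG00000024620) is on chromosome 18 from 61045150 to 61085061, and Pdgfrl (ENSMUSG00000031595) on chromosome 8 from 40926212 to 40990785. Pdgfb (ENSMUSG00000000489) is on chromosome 15 from 79995874 to 80014977, Pdgfc (ENSMUSG00000028019) on chromosome 3 from 81036416 to 81214040, and Pdgfd (ENSMUSG00000032006) on chromosome 9 from 6168584 to 6378850. None overlaps another protein-coding gene on its own strand, and Pdgfd overlaps Ddi1 on the opposite strand. Counts are of the 3′ ends of whole transcripts, including exons and 3′ UTRs, and carry no information on promoters or isoforms.

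As shares of all UMIs, both signalling receptors were lower at d3 than in uninjured muscle. At d5 Pdgfrb was higher than at d3 after both injuries, and Pdgfra was higher after fracture, but after polytrauma its log2 ratio of d5 to d3 was 0.18, below the 0.50 of the median gene, and -0.31 with median-of-ratios scaling. Pdgfra stood at 158 CPM at d0, 46.7 at d3 post-fracture, 131 at d5 post-fracture, 66.8 at d3 post-polytrauma and 75.8 at d5 post-polytrauma. No counting intervals of these libraries overlapped, so d0 was the highest and d3 post-fracture the lowest beyond counting error. Pdgfrb stood at 97.4 CPM at d0, 35.9 at d3 post-fracture, 78.2 at d5 post-fracture, 37.6 at d3 post-polytrauma and 98.5 at d5 post-polytrauma. Here d0 and d5 post-polytrauma had overlapping intervals (92.9 to 102 and 97.1 to 99.9), as had the d3 libraries. In all retained cells, however, more held a UMI at d3. For Pdgfra it was 47.7% post-fracture and 57.1% post-polytrauma, against 36.2% at d0. For Pdgfrb it was 40.2% and 38.8%, against 26.8%. Median depths in this order were 17963, 15688 and 3640 UMIs. With each cell thinned to 2000 UMIs, which leaves out shallower cells, fewer held a UMI at d3 than at d0. For Pdgfra the thinned shares were 10.5% post-fracture and 13.1% post-polytrauma, against 25.2% at d0. For Pdgfrb they were 7.74% and 6.36%, against 16.4%. The higher d3 shares were thus not present at equal depth. The ratio of Pdgfrb to Pdgfra UMIs was 0.618 at d0, 0.768 at d3 post-fracture, 0.596 at d5 post-fracture and 0.562 at d3 post-polytrauma, but 1.30 (95% interval 1.27 to 1.33) at d5 post-polytrauma. That library was the only one of the 5 in which Pdgfrb UMIs outnumbered those of Pdgfra.

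Pdgfrl was ordered differently. It stood at 120 CPM at d0, 78.8 at d3 post-fracture, 152 at d5 post-fracture, 48.7 at d3 post-polytrauma and 99.3 at d5 post-polytrauma, with no overlap of intervals, and was lower after polytrauma than after fracture at both times.

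Among ligands, Pdgfa was the most counted, with 66.4 CPM at d0, 39.9 at d3 post-fracture, 39.6 at d5 post-fracture, 60.3 at d3 post-polytrauma and 76.7 at d5 post-polytrauma. The fracture libraries had overlapping intervals, and both polytrauma libraries lay above both of them. Pdgfc stood at 11.4 CPM at d0, 23.4 and 24.9 at d3 and d5 post-fracture, 11.6 at d3 post-polytrauma and 36.1 at d5 post-polytrauma. Its d0 and d3 post-polytrauma levels did not differ beyond counting error, nor did its fracture levels from each other. Pdgfd was scarcer, at 11.7 CPM at d0, 2.92 and 9.58 at d3 and d5 post-fracture, and 1.80 and 4.80 at d3 and d5 post-polytrauma. Pdgfb was close to absent, with 24 UMIs at d0, 4 at d3 post-fracture, 13 at d5 post-fracture, 7 at d3 post-polytrauma and 24 at d5 post-polytrauma.

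**Figure D1:**
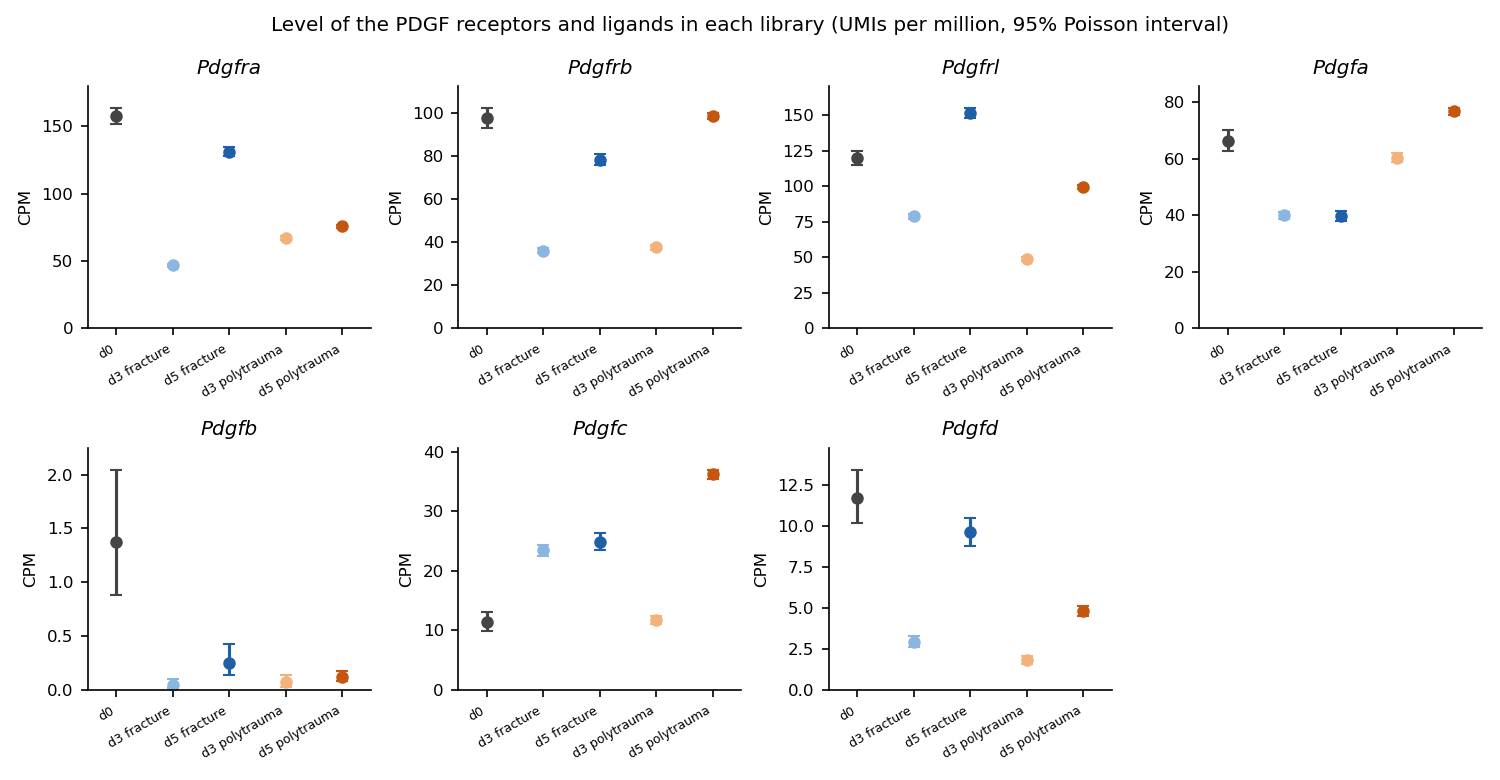
Level of each gene (CPM, vertical axis from 0) in the 5 libraries, with exact 95% Poisson intervals that cover counting error only. Pdgfra and Pdgfrb are lowest at d3, whereas Pdgfc is highest at d5 post-polytrauma (36.1 CPM) and Pdgfb stays at or under 1.38 CPM.

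To locate these transcripts, each library was clustered on its own with the 7 genes left out, and clusters were named from marker lists that hold none of them. FAP and mesenchymal progenitor-like (FAP/MP-like) clusters, in which at least 3 of Prrx1, Cxcl12, Ly6a and Cd34 were raised, took 3043 of 4632 cells at d0, 1602 of 5589 at d3 post-fracture, 294 of 1468 at d5 post-fracture, 2490 of 6201 at d3 post-polytrauma and 2138 of 11941 at d5 post-polytrauma. All 5 fibroblast markers were also raised in both FAP/MP-like clusters of each d3 library, in the cluster of d5 post-fracture led by Dpp4 and in all 3 of d5 post-polytrauma, but in none of d0. Mural-like clusters, with pericyte or smooth muscle markers, took 746 cells at d0 but 117, 39, 56 and 101 in the same order of libraries. Hematopoietic-like clusters held 5 to 92 cells where one was found, and no cluster took an endothelial or platelet name. Unnamed clusters took 8.98% of cells at d0, 43.8% and 35.1% at d3 and d5 post-fracture, and 34.8% and 41.0% at d3 and d5 post-polytrauma.

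Pdgfra was higher in FAP/MP-like than in mural-like cells in every library. In FAP/MP-like cells it was at 211 CPM at d0, 79.2 at d3 post-fracture, 292 at d5 post-fracture, 87.0 at d3 post-polytrauma and 98.8 at d5 post-polytrauma. In mural-like cells it was at 13.4, 3.95, 2.68, 2.40 and 26.4 CPM in the same order of libraries, from 1 to 43 UMIs each. Chondrocyte-like cells of d5, which carry the cartilage genes Col2a1 and Hapln1, were also low in it, at 20.0 CPM after fracture and 18.0 after polytrauma, or 16.9 without shared barcodes. Within uninjured muscle it varied among FAP/MP-like clusters from 89.3 CPM in cluster 9, led by Mrgprg and Col6a5, to 318 in cluster 5, led by Cmklr1 and G0s2. Its highest d0 level, 403 CPM, was in the unnamed cluster 11 of 102 cells led by Ncmap and Gad1. The tenocyte-like cells of d0, marked by tendon genes, held 14.5 CPM, against 28.5 in those of d3 post-fracture and 55.8 and 59.8 in those of d3 and d5 post-polytrauma.

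With each cell thinned to 2000 UMIs, 32.5% of FAP/MP-like cells at d0 held a Pdgfra UMI, against 3.03% of mural-like cells. The mural share was taken as a level that free RNA could give, though free RNA itself was not estimated. Median depths of FAP/MP-like and mural-like cells before thinning were 3381 and 4345 UMIs. At d3 the FAP/MP-like share was 17.9% post-fracture and 16.3% post-polytrauma, and at d5 it was 40.4% post-fracture and 17.8% post-polytrauma. The lower Pdgfra at d3 was thus present inside the FAP/MP-like cells as well as in the library as a whole.

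Pdgfrb was spread more evenly at d0, where FAP/MP-like cells held 99.1 CPM, tenocyte-like cells 99.2 and mural-like cells 84.9. After injury it was highest in mural-like cells, at 159 CPM at d3 and 405 at d5 post-fracture, and 146 at d3 and 317 at d5 post-polytrauma, above the FAP/MP-like level in each of these 4 libraries. The mural-like clusters were not alike, however. At d0 they held Myh11, a contractile myosin of smooth muscle, at 2645 CPM and the pericyte channel genes Kcnj8 and Abcc9 at 6.53 and 4.04 CPM. At d5 post-fracture the cluster of 20 cells with 474 CPM of Kcnj8 had 525 CPM of Pdgfrb, and the cluster of 19 cells with 3995 CPM of Myh11 and no Kcnj8 UMI had 207. At d3 post-fracture the corresponding levels were 173 CPM (139 to 213) in the Kcnj8 cluster and 133 (92.1 to 186) in the Myh11 cluster. These d3 intervals overlapped. The part of this makeup in the higher mural level after injury was not tested.

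In FAP/MP-like cells Pdgfrb was at 34.4 CPM at d3 and 70.5 at d5 post-fracture, and 33.8 at d3 and 106 at d5 post-polytrauma. The last value leaned on cluster 7, a shallow cluster of 756 cells led by Lars2 with a median of 6067 UMIs, in which Pdgfrb reached 233 CPM. Without it, a choice made after seeing the data, the d5 post-polytrauma level was 73.0 CPM (69.3 to 76.9), which overlaps the interval of d5 post-fracture (65.1 to 76.3).

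**Figure D2:**
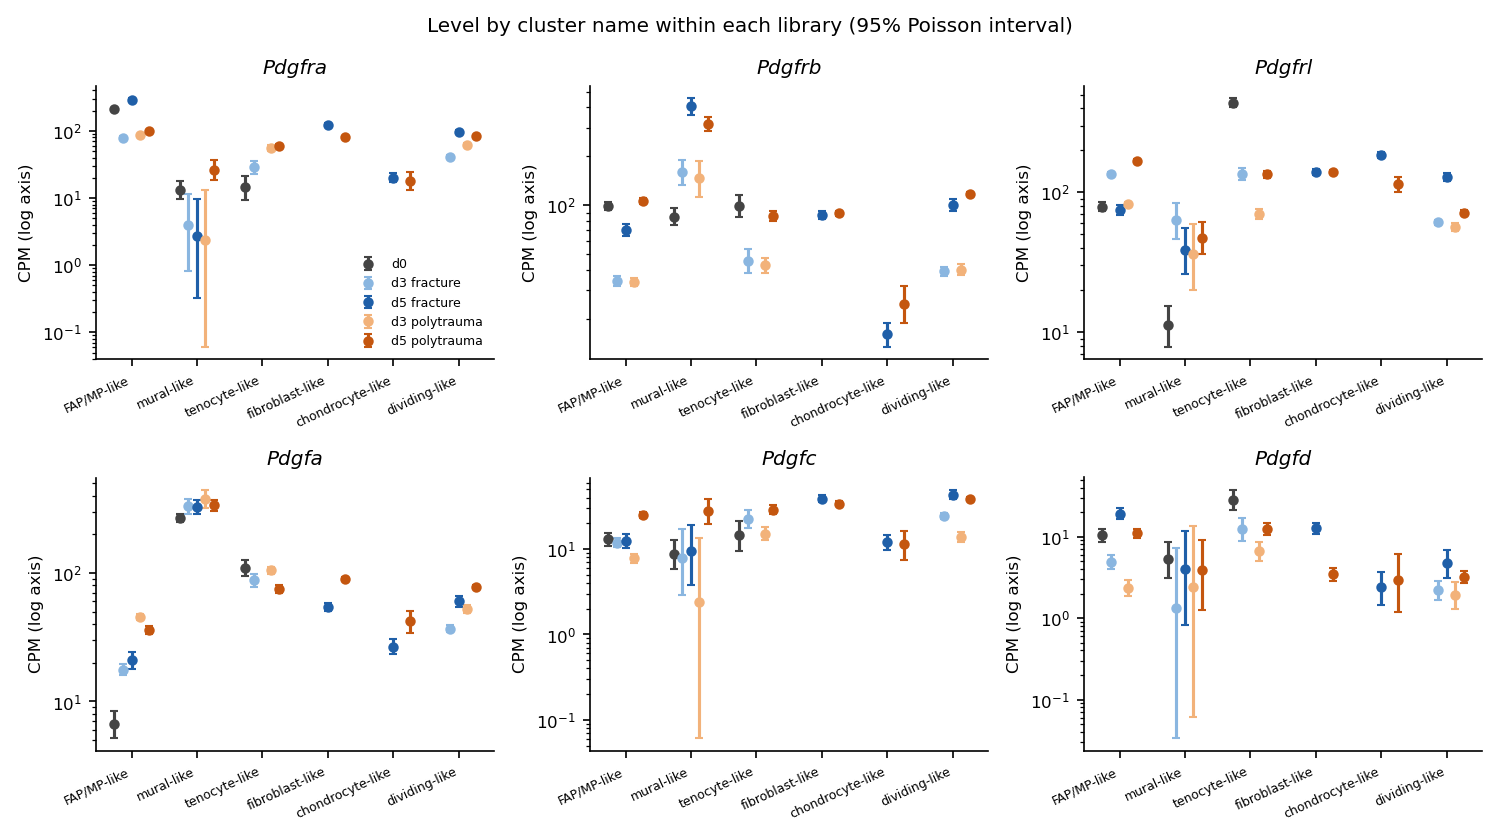
Level (CPM, log axis) of 6 genes in 6 kinds of named clusters, coloured by library, with exact 95% Poisson intervals; levels of 0 are not drawn. Pdgfa is highest in mural-like cells of every library (268 to 379 CPM), where Pdgfra is below its FAP/MP-like level.

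Cells with UMIs of both receptors were counted at 2000 UMIs per cell. They made up 4.14% of cells at d0 (161 of 3888), 1.01% at d3 post-fracture, 4.31% at d5 post-fracture, 0.932% at d3 post-polytrauma and 2.77% at d5 post-polytrauma, so that both d3 shares were the lowest. The shares with each receptor were lowest there too. At d3 post-fracture and post-polytrauma Pdgfra was found in 10.5% and 13.1% of cells, and Pdgfrb in 7.74% and 6.36%. Whether the receptors met in a cell more often than their separate shares give was not tested. Among FAP/MP-like cells at d0 the share was 5.88% (143 of 2434), and among mural-like cells it was 0 of 693, which allows a share of up to 0.433% at this depth. Mural-like cells of d0 were not free of such cells at greater depth, with 8 of 746 (1.07%) before thinning and 5 of 213 (2.35%) at 5000 UMIs. Before thinning, 63.8% of d5 post-fracture cells and 10.3% of d0 cells held both, at median depths of 34949 and 3640 UMIs. At like depths the unthinned shares still differed, with 43.3% at d5 post-polytrauma (median 15753 UMIs) and 24.4% at d3 post-polytrauma (15688). In the same cells Pdgfrb was found in 68.0% and 38.8%. Thinning left out 744 shallower cells at d0, 225 at d3 post-fracture, 30 at d5 post-fracture, 83 at d3 post-polytrauma and 424 at d5 post-polytrauma.

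Pdgfrl was highest in tenocyte-like cells among the named clusters of d0. There tenocyte-like cells held 438 CPM, and within them cluster 7, led by Wif1 and Matn3, held 624, against 74.1 in cluster 10, led by Col22a1. The unnamed cluster 12 of 67 cells led by the osteocalcin genes Bglap and Bglap2 held 618 CPM, and mural-like cells held 11.2. Tenocyte-like cells supplied 37.7% of all d0 Pdgfrl UMIs from 8.29% of the cells. At d3 their level was 136 CPM post-fracture and 70.1 post-polytrauma, and at d5 chondrocyte-like cells held 186 CPM post-fracture and 114.5 post-polytrauma, or 110 without shared barcodes. The highest cluster of d5 post-fracture was the unnamed cluster 1 of 297 cells, led by Lyz2 and the tendon gene Scx, at 252 CPM. In FAP/MP-like cells, unlike in the whole library, Pdgfrl was higher at d3 post-fracture (135 CPM) than at d0 (79.1).

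Pdgfa was highest in mural-like cells in every library. They held 268 CPM at d0, 330 and 329 at d3 and d5 post-fracture, and 379 and 336 at d3 and d5 post-polytrauma, while FAP/MP-like cells held 6.62, 17.7, 20.9, 45.5 and 36.1 in the same order of conditions. At d0 mural-like cells supplied 74.5% of Pdgfa UMIs, against 6.27% and 11.9% at d3 and d5 post-fracture and 2.54% and 2.78% at d3 and d5 post-polytrauma, when they were scarce. Unnamed clusters supplied 51.8% and 18.8% of Pdgfa UMIs at d3 and d5 post-fracture, and 41.9% and 46.4% at d3 and d5 post-polytrauma. Their shares of the UMIs of all genes were 46.5%, 30.8%, 43.2% and 44.4% in the same order. Within the mural-like cells of d0 a finer clustering separated 368 cells with 357 CPM of Pdgfa and 19.8 of Rgs5, a listed pericyte marker, from 378 cells with 165 CPM of Pdgfa and 637 of Rgs5. Pdgfrb was ordered the other way in these subsets, at 62.8 and 110 CPM. Both subsets were rich in Myh11 (2817 and 2447 CPM) and low in Kcnj8 (2.32 and 11.4 CPM). The Myh11 clusters of d3 and d5 post-fracture also held Rgs5, at 1721 and 1147 CPM. The subsets are therefore not named as pericytes and smooth muscle. Outside mural-like cells, the highest Pdgfa was in the 59 myogenic-like cells of d3 post-polytrauma (276 CPM), in the tenocyte-like cluster 10 of d0 (147) and in a fibroblast-like cluster of each d5 library, led by Kcnn4 post-fracture (133 CPM) and by Ank post-polytrauma (138 CPM).

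Over the 53 clusters of at least 50 cells and 200000 UMIs, centred on their library, Pdgfa ran opposite to Pdgfra (Pearson r = -0.73) and Pdgfrb bore little relation to Pdgfra (r = -0.15). These are descriptions over clusters that share libraries, with no test. The genes most like Pdgfra were Pdpn, which encodes podoplanin, the activin receptor gene Acvr2a, Celf2, Mgst1 and Dram1 (r from 0.82 to 0.85). Those most like Pdgfa were the transcription factor gene Tbx3, the integrin gene Itgb1, the tropomyosin gene Tpm1, the water channel gene Aqp1 and Myo1d (r from 0.81 to 0.86). For Pdgfrb, Pdgfrl, Pdgfc and Pdgfd no gene of the 7459 searched reached the limit of 0.8.

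**Figure D3:**
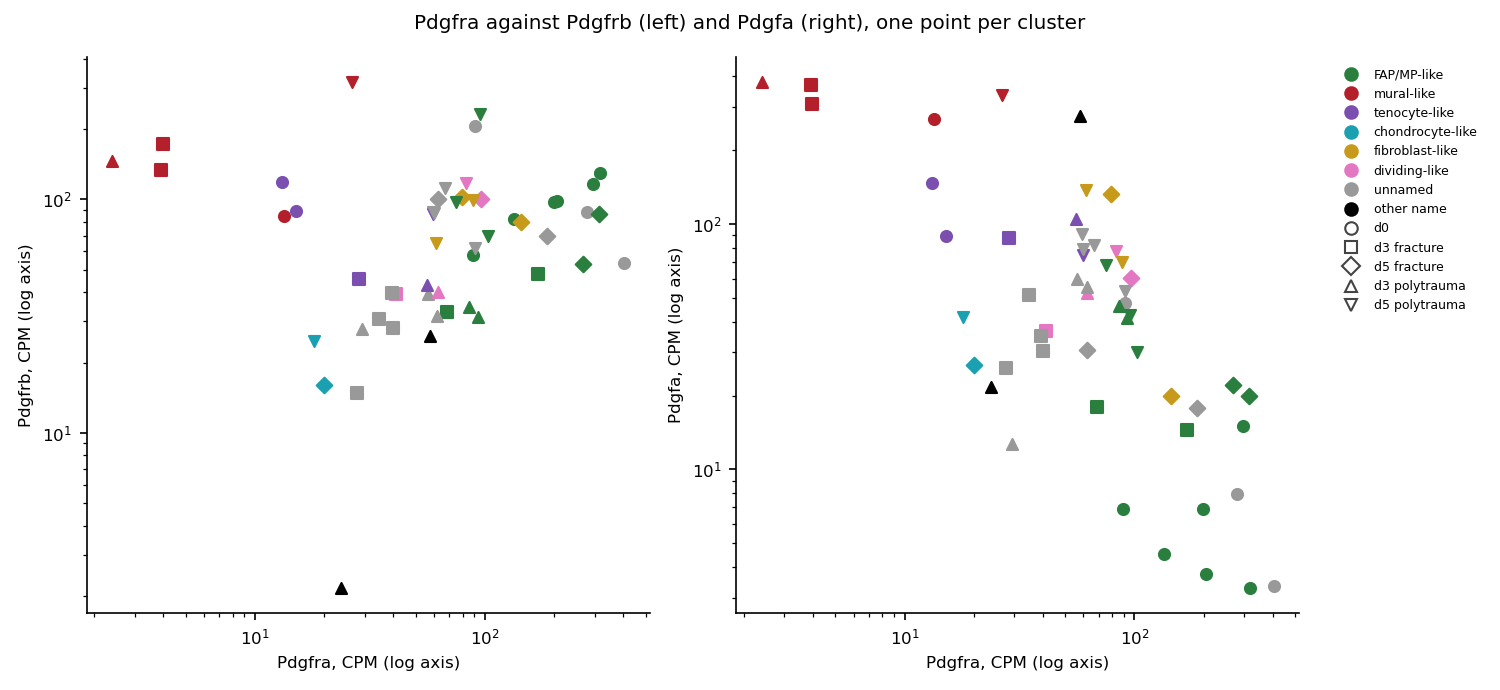
Pdgfra (horizontal) against Pdgfrb (left) and Pdgfa (right), in CPM on log axes, with 1 point per cluster of at least 50 cells and 200000 UMIs. Mural-like clusters lie at low Pdgfra and high Pdgfa, and the d0 FAP/MP-like clusters at the opposite end; the small mural-like clusters of d5 post-fracture are not drawn.

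Pdgfb UMIs came mostly from mural-like cells where there were enough to count: 22 of 24 at d0, 12 of 13 at d5 post-fracture and 17 of 24 at d5 post-polytrauma. All Pdgfb UMIs of these libraries lay in 23, 7 and 9 cells in the same order, so that the d5 shares rest on few cells. At d5 post-fracture all 12 were in the Myh11 cluster. Of the other 2 at d0, 1 fell among the 5 hematopoietic-like cells. At d3 only 1 of 4 UMIs post-fracture and none of 7 post-polytrauma fell in mural-like cells. Endothelial cells and platelets, classical sources of PDGF-B, were hardly present in the sort: the summed level of 5 endothelial markers was 48.7 CPM at d0 and 3.64 to 9.58 CPM in the other 4 libraries, and that of 4 platelet markers was 7.96 to 18.8 CPM, with Ppbp at 0 UMIs at d0 and Gp9 at 0 in 3 of the injured libraries.

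Pdgfc and Pdgfd divided the FAP/MP-like cells of uninjured muscle. Pdgfc was at 63.2 CPM (46.2 to 84.3) in cluster 9, led by Mrgprg, Col6a5 and Smpd3, and 29.3 (23.4 to 36.3) in cluster 2, led by Stmn4 and Krt80. It was at 2.50 CPM in cluster 4 and 1.53 in cluster 6, and no UMI was found in clusters 3 and 5, where 3 UMIs would have given 1.40 and 1.97 CPM. Pdgfd followed a similar order, with 24.7 and 20.3 CPM in clusters 9 and 2 and 0.933 to 7.67 in clusters 3 to 6. Clusters 9 and 2 had the lowest Pdgfra (89.3 and 134 CPM) of these 6 clusters. Outside them Pdgfd was high in tenocyte-like cells (28.4 CPM) and in the 38 perineurial-like cells, which sheathe nerves, at 72.2 CPM from 7 UMIs. After injury Pdgfc was highest in the same d5 fibroblast-like clusters as Pdgfa outside mural-like cells, at 83.7 CPM post-fracture and 70.5 post-polytrauma. Pdgfd was highest after injury in the FAP/MP-like cluster of d5 post-fracture led by Dpp4, at 26.5 CPM, and reached 12.9 CPM in the cluster of d5 post-polytrauma led by Pi16.

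Dividing-like clusters, marked by mitotic genes, carried Pdgfrb at 39.2 CPM at d3 post-fracture, 101 at d5 post-fracture, 40.2 at d3 post-polytrauma and 117 at d5 post-polytrauma. The difference in Pdgfrb between d3 and d5 was thus present in these clusters too. Their Pdgfc level was 24.2, 43.5, 13.9 and 39.0 CPM in the same order of libraries. It was lowest at d3 post-polytrauma, as it was among the whole libraries of injured muscle. The dividing-like cluster of d3 post-polytrauma was led by Tnn and C1qtnf3, with all 5 fibroblast markers raised. Those of the other libraries were led by Nusap1 or Aspm, so that the dividing-like clusters need not hold the same cells. In the fibroblast-like clusters of d5, rich in collagen genes, Pdgfrb was close in both injuries, at 87.1 CPM post-fracture and 89.3 post-polytrauma, as was Pdgfrl at 140.5 and 140.2. Pdgfra was lower after polytrauma in these cells as well (80.9 against 124 CPM), Pdgfd was lower (3.47 against 12.7) and Pdgfa was higher (89.7 against 54.5).

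**Figure D4:**
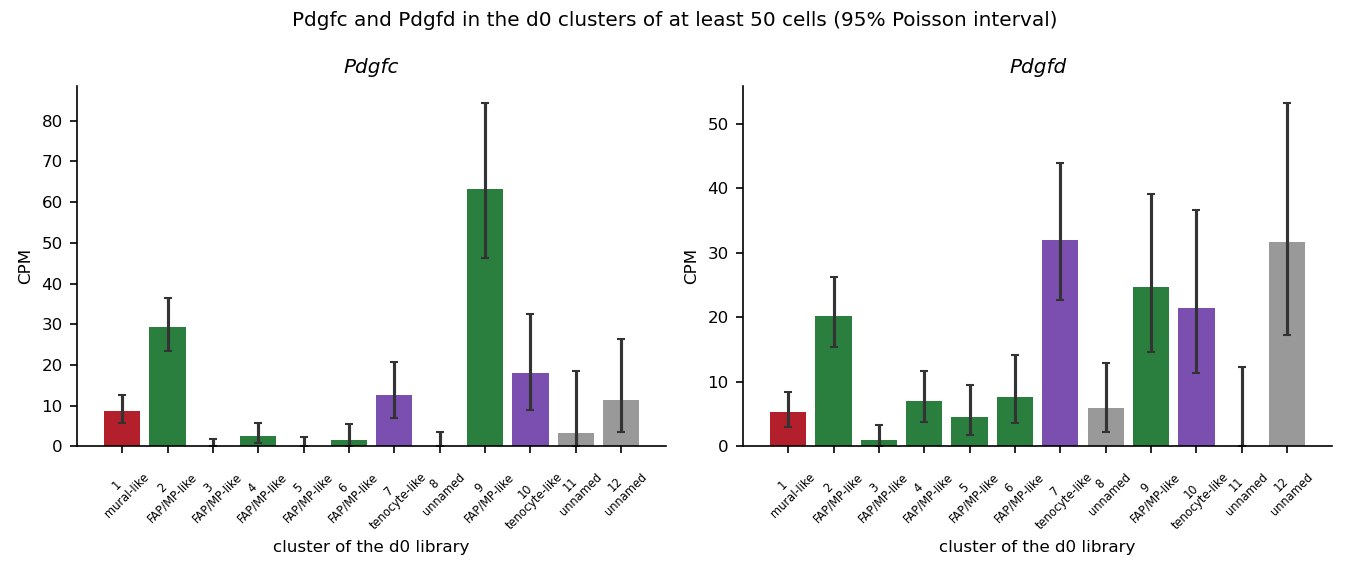
Pdgfc and Pdgfd (CPM, bars from 0, exact 95% Poisson intervals) in the d0 clusters of at least 50 cells. Clusters 2 and 9 hold most Pdgfc among the FAP/MP-like clusters, at 29.3 and 63.2 CPM, against 0 to 2.50 CPM in the other 4.

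The first comparison asked what fracture changed by d3. Pdgfra was lower by a log2 ratio of -1.76 (-1.82 to -1.69), Pdgfrb by -1.44 and Pdgfd by -2.00, and Pdgfc was higher by 1.04 (0.83 to 1.26), so that 4 of the 6 genes were past 2-fold. Among all 12389 genes compared 42.9% were past 2-fold, 30.3% lower and 12.5% higher, and the median log2 ratio was -0.39. The count is therefore read against a broad shift of the library, and all 6 lay between the 10th and 90th percentiles of genes. With median-of-ratios scaling, under which the median of genes was 0.19, Pdgfrb was at -0.86 and no longer past 2-fold. Inside FAP/MP-like cells Pdgfra (-1.41) and Pdgfrb (-1.53) remained lower, while Pdgfc showed no difference beyond counting error (-0.13, from -0.43 to 0.18) and Pdgfa was higher (1.41) rather than lower as in the library (-0.73). Between d3 and d5 post-fracture 3 of 6 genes were past 2-fold, Pdgfra (1.49), Pdgfrb (1.12) and Pdgfd (1.71), against 42.3% of all genes (37.8% higher and 4.47% lower) and a median of 0.67. With median-of-ratios scaling none of these 3 was past 2-fold, and Pdgfc went from 0.09 to -0.65.

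The second asked how polytrauma differed from fracture at the same time. At d3 only Pdgfc was past 2-fold, at a log2 ratio of -1.01 (-1.11 to -0.91), where 5.2% of all genes were past 2-fold (2.69% higher and 2.51% lower) and the median was -0.03. Pdgfra was at 0.52 and Pdgfa at 0.60, above 91.0% and 92.7% of genes, and Pdgfrl was at -0.70 and Pdgfd at -0.70. Pdgfrb was at 0.07, with an interval that nearly reached 0. With each cell thinned to 2000 UMIs none of the 6 was past 2-fold. Inside FAP/MP-like cells the Pdgfa ratio was larger, at 1.36 (1.20 to 1.53), with 45.5 CPM against 17.7, and the Pdgfra ratio smaller, at 0.14. Other clusters differed: in dividing-like and tenocyte-like cells the Pdgfra ratio was 0.60 and 0.97, and the Pdgfa ratio 0.51 and 0.26. In mural-like cells the Pdgfa ratio was 0.20 (-0.10 to 0.49). Pdgfc was within 2-fold in FAP/MP-like cells (-0.60, from -0.85 to -0.34), as in dividing-like (-0.80) and tenocyte-like cells (-0.56). Pdgfd was past 2-fold in FAP/MP-like cells (-1.05, from -1.48 to -0.61). Unnamed clusters, however, supplied 57.1% of Pdgfc UMIs at d3 post-fracture and 48.8% at d3 post-polytrauma, with 46.5% and 43.2% of all UMIs. Without shared barcodes, they held Pdgfc at 28.7 CPM post-fracture and 13.0 post-polytrauma, a difference past 2-fold. Mural-like cells held only 6 and 1 Pdgfc UMIs in the same order.

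At d5 none of the 6 genes was past 2-fold between polytrauma and fracture, against 12.3% of all genes (1.93% higher and 10.4% lower). Pdgfa (0.96, from 0.89 to 1.02) and Pdgfd (-0.998, from -1.16 to -0.84) were nearest to the limit. Pdgfra was lower after polytrauma (-0.79), Pdgfrl lower (-0.61), Pdgfrb higher (0.33) and Pdgfc higher (0.54). Pdgfa lay above 97.8% of the 12390 genes in this comparison. Inside FAP/MP-like cells Pdgfra was lower by -1.57 (-1.65 to -1.49), with 98.8 CPM against 292, and Pdgfrl was higher by 1.17, opposite to the library. The d5 post-fracture FAP/MP-like clusters were led by Cxcl14 and Dpp4, and those of polytrauma by Pi16, Lars2 and Ifit3, so that they need not hold the same cells. In mural-like cells the Pdgfa ratio was 0.03 (-0.20 to 0.26), with 329 and 336 CPM.

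The d5 and d3 polytrauma libraries differed past 2-fold in 4 of the 6 genes: Pdgfrb (1.39), Pdgfrl (1.03), Pdgfc (1.64) and Pdgfd (1.41), against 32.2% of all genes (27.6% higher and 4.53% lower) and a median of 0.50. Pdgfra (0.18) and Pdgfa (0.35) lay below that median, and both turned negative with median-of-ratios scaling (-0.31 and -0.14), where only Pdgfc stayed past 2-fold. This comparison and that of d5 with d3 post-fracture cross the change of barcode set.

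**Figure D5:**
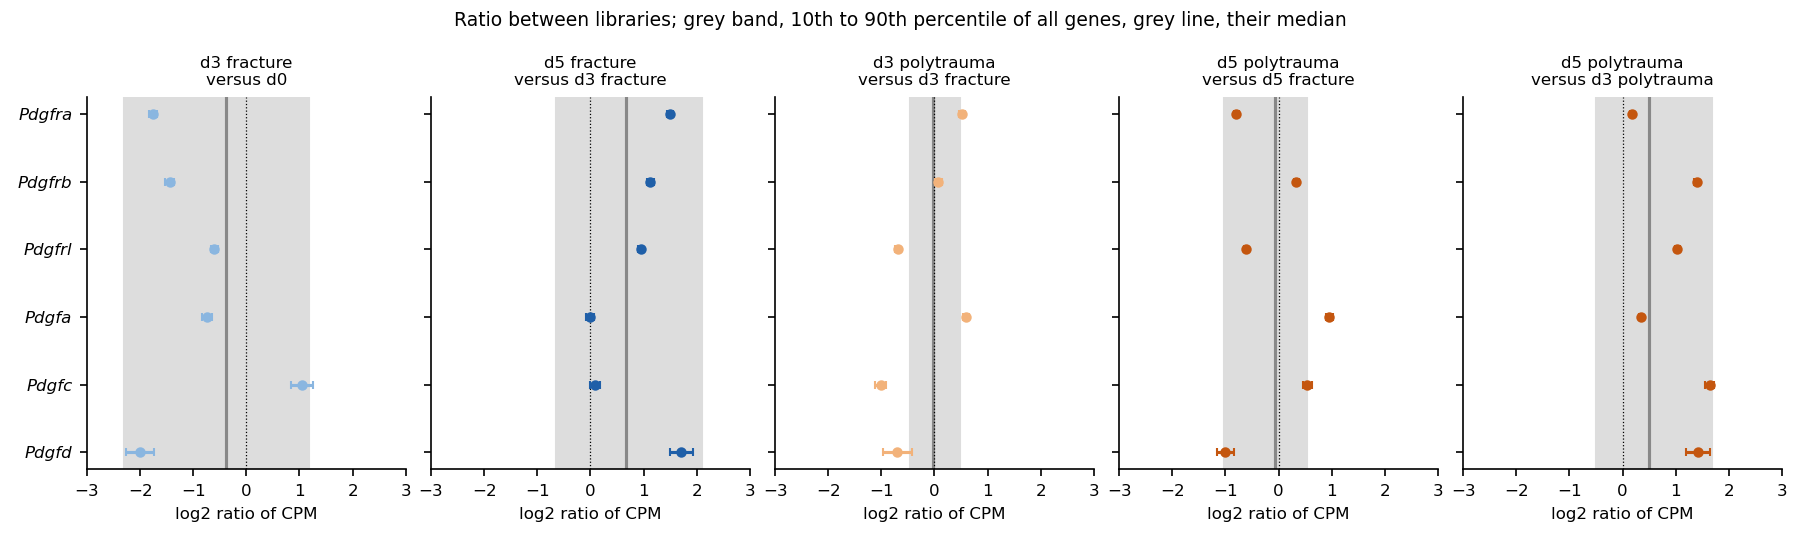
Log2 ratio of CPM between libraries for the 6 genes that passed the filter, with 95% counting intervals; the grey band spans the 10th to 90th percentile of all genes and the grey line is their median. Pdgfra, Pdgfa, Pdgfc, Pdgfrl and Pdgfd leave the band between polytrauma and fracture at d3, and Pdgfa and, narrowly, Pdgfc do at d5.

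Of the other imatinib-sensitive kinases, Ddr2, a collagen receptor, was the most counted, at 130 CPM at d0, 38.8 and 66.0 at d3 and d5 post-fracture, and 52.6 and 65.3 at d3 and d5 post-polytrauma. Its order over d0, d3 and d5 was that of the PDGF receptors post-fracture. Abl1 stood at 21.2 CPM at d0, 13.3 and 33.0 after fracture and 11.2 and 30.9 after polytrauma, and Abl2 kept between 28.9 and 38.1 CPM. Kit, the stem cell factor receptor, never exceeded 0.573 CPM, and Csf1r, a macrophage receptor, never exceeded 1.78. Between polytrauma and fracture none of the 5 kinases that passed the filter was past 2-fold at either time, where 5.2% of all genes were at d3 and 12.3% at d5, so that a count of 0 is near the background.

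Among proteases that mature PDGF ligands, Pcsk6 was 105.5 CPM at d0 and 3.66 at d3 post-fracture, a log2 ratio of -4.85. Plau, the urokinase that can activate PDGF-D, was at 88.1 and 15.6 CPM, and Pcsk5 was higher after fracture, at 29.7 and 80.8 CPM. Plat, the tissue plasminogen activator that cleaves PDGF-C, stood at 206 CPM at d0, 125 and 61.4 post-fracture and 113 and 71.5 post-polytrauma. Furin ranged from 36.0 to 75.9 CPM and Pcsk7 from 10.5 to 18.3, while St14 had too few UMIs for a comparison. At d5 Pcsk5 (-1.20) and Pcsk6 (-2.64) were lower after polytrauma than after fracture, 2 of 6 proteases compared, where 10.4% of all genes were lower past 2-fold. Pcsk6 was among the 10 leading genes of the FAP/MP-like cluster of d5 post-fracture led by Dpp4, which took 9.33% of cells. The part of that cluster in the difference was not tested. Of the co-receptors and binding proteins, Cspg4, which is NG2 and also a pericyte marker, was lower after polytrauma at d5 (11.0 against 46.0 CPM). It was also raised in the chondrocyte-like clusters, which took 11.8% of cells at d5 post-fracture and 1.75% at d5 post-polytrauma. The summed level of 5 chondrocyte markers was 2816 and 299.6 CPM in this order. That of 7 pericyte markers, which include Cspg4 itself, was 236 and 103 CPM. The part of either kind of cell in the Cspg4 difference was not tested. Nrp1, Lrp1 and Sparc were within 2-fold in all 5 comparisons.

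Of 32 signal relay genes compared, none was higher and 10 were lower past 2-fold at d3 post-fracture against d0, with a median log2 ratio of -0.82 beside -0.39 for all genes. Over all genes 30.3% were lower past 2-fold, so that the count is near the background. The 10 included the PI3-kinase subunit genes Pik3r1 (-2.48) and Pik3r2 (-1.52), the Src-family kinase gene Fyn (-1.97) and Stat5b (-2.12). Between d3 and d5 post-fracture 15 were higher and none lower, where 37.8% of all genes were higher and 4.47% lower, with a median of 0.99 beside 0.67. Between polytrauma and fracture 1 was past 2-fold at d3 (Nck2, -1.18) and 1 at d5 (Pik3r1, -1.29), against 5.2% and 12.3% of all genes, with medians of 0.05 and -0.05.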

How the data were processed

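Gene expression was measured in 5 single-cell libraries. The authors aligned reads to mm10 with Cell Ranger and deposited raw UMI counts per gene and barcode, without normalization. The matrix header names Cell Ranger 3.1.0, whereas the methods of the study name a later version. The submitters' notes also name Seurat 3.1.2, and the methods of the study name this version and an earlier one. The lowest deposited total was 500 UMIs. Cells with 350 to 8000 genes, under 20% mitochondrial UMIs and at least 1000 UMIs were retained. Possible doublets were not called; cells above the 95th percentile of UMIs were left out as an alternative.

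There were 2001 barcodes under the label d3 post-polytrauma and 6915 under d5 post-fracture, and the study's cell numbers led to their exchange. Every comparison was repeated with the deposited labels.

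Each library was clustered (2000 variable genes, 20 components, 20 neighbours, Leiden resolution 0.5, leidenalg and igraph in Python). Names needed 3 raised markers in at least 10% of cells, and this requirement was changed once the clusters were known. Raised meant 1.5 times the mean of the other clusters, or above it for FAP/MP and fibroblast. Except for FAP/MP, the whole list had to be raised or 2 markers be among the 10 leading genes. Further rules on ties, competing lists and shallow clusters withheld names. Cluster 1 of d5 post-fracture stayed unnamed under the whole-list rule, with 4 of 5 tenocyte markers raised and 1 among its 10 leading genes. CPM is UMIs over all UMIs of the cells summed. Intervals are exact Poisson (levels), Clopper-Pearson (shares) or conditional binomial (ratios), at 95%. Limits for a count of 0 use 3 counts. Calls are ratios past 2-fold, checked on simulated data. Genes named beside the family were pathway genes past 2-fold or in lists of up to 10, and the 5 most correlated genes with r of at least 0.8. Members and lists were chosen with earlier results of these data known.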

Additional observations from a re-analysis of the deposited data

How the results depend on the processing

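With 1 library per condition no library could be left out in turn. No paired analysis was possible because no condition has more than 1 library. Counts of the 6 genes past 2-fold moved as follows. For d5 against d3 post-fracture (3), it was 0 with median-of-ratios scaling and 1 with the deposited labels. For polytrauma against fracture at d3 (1), it was 3 with the deposited labels, 0 with cells thinned to 2000 UMIs, 4 at a 1.5-fold limit and 2 in FAP/MP-like clusters only. For the same at d5 (0), it was 1 with median-of-ratios scaling, without shared barcodes that were not 10 times deeper (an alternative added after seeing the data) or without the deepest cells, 4 with the deposited labels or at 1.5-fold, 2 when thinned or in FAP/MP-like clusters without the one led by Lars2 (also added after seeing the data), and 3 in all FAP/MP-like clusters. For d5 against d3 polytrauma (4), it was 1 with median-of-ratios scaling and 0 with the deposited labels. For d3 post-fracture against d0, no alternative moved the count of 4 by more than 1.5 times. The log2 ratios themselves moved more widely. Of 30, 24 left their main counting interval with median-of-ratios scaling, 22 when thinned and 10 without barcodes of more than 1 library. In FAP/MP-like clusters only 24 moved beside 1 reversed, and with the deposited labels 20 beside 4 reversed. Without the deepest cells 4 moved. Log2 ratios past 2-fold that reversed were Pdgfc at d3 post-fracture against d0 in FAP/MP-like clusters (-0.13) and, with the deposited labels, Pdgfd at d5 against d3 post-fracture (-0.70), Pdgfc at d3 between injuries (0.088), and Pdgfrl (-0.61) and Pdgfd (-0.998) at d5 against d3 polytrauma; the exchange of the 2 libraries gives the last 4. Co-detection at 5000 UMIs was 12.6% at d0, 3.38% and 12.8% at d3 and d5 post-fracture, and 4.72% and 11.3% at d3 and d5 post-polytrauma. With no filter, 2 pathway genes rather than 1 were past 2-fold between injuries at d3. Depth limits Pdgfb, and Pdgfrb, Pdgfc and Pdgfd in small clusters.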

Other observations

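The VEGF ligands, relatives of the PDGFs in sequence that act on endothelial receptors, were counted in the same libraries. Vegfd stood at 7.11 CPM at d0, 42.9 and 41.4 at d3 and d5 post-fracture, and 73.9 and 27.4 at d3 and d5 post-polytrauma. Pgf, which encodes placental growth factor, went the other way, from 95.3 CPM at d0 to 12.5 and 2.12 post-fracture and 19.6 and 5.05 post-polytrauma. Vegfa was at 44.8 CPM at d0 and between 17.1 and 38.5 after injury.

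Among negative regulators of receptor tyrosine kinase signalling, 4 of 10 were lower and 1 higher past 2-fold at d3 post-fracture against d0, near the 30.3% and 12.5% of all genes. Spry1 was at 73.9 CPM at d0 and 9.70 at d3, Spry4 at 22.3 and 1.79, and Spry2 at 274 and 114. The phosphatase gene Dusp4 was at 0.803 and 4.10 CPM. At d5 Spry2 was lower (-1.22) and Dusp4 higher (2.04, log2 ratio) after polytrauma than after fracture.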
